A study of Mus musculus with 8 samples.

Results

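Collagen chains were taken as the genes whose symbol in the array's annotation has the form Col, a number, the letter a and a number. This rule used names only and no measured value, and it found 37 of the 16593 genes measured. They were read by 59 probes, with more than 1 probe for 12 of them. By type of assembly, 11 were fibrillar chains, 6 were basement membrane chains of type IV, 3 were beaded-filament chains of type VI and 4 were transmembrane chains. The other 13 were anchoring-fibril, network-forming, fibril-associated and multiplexin chains together with Col26a1 and Col28a1.

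The study sorted cells of mammary glands from nulliparous animals aged 16 weeks of the B6.129P2-AXLtm1Dgen strain, in which lacZ is inserted in Axl and is read out with FDG, a substrate that fluoresces once the lacZ product has cleaved it. The 4 groups, with 2 arrays each, were homozygous FDG-high cells (Axl LacZ/LacZ, the brightest 5%), homozygous FDG-low cells (Axl LacZ/LacZ, the dimmest 65%), heterozygous FDG-high cells (Axl LacZ/+, the brightest 5%) and heterozygous FDG-low cells (Axl LacZ/+, the dimmest 65%). All 8 samples carried at least 1 lacZ allele, were pools of glands from several animals of the same genotype, and held viable single cells sorted as CD45-, CD31- and CD11b-. Wild-type glands were not analysed here. Nothing in the labels tells whether both arrays of a group stem from different pools, and the p-values cover only array-to-array spread, which may be technical.

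Collagens are secreted or membrane proteins built from chains with repeats that start with glycine, which wind around each other into a helix. Fibrillar chains form the cross-striated fibres of the stroma, type IV chains form the sheet-like network of the basement membrane on which mammary epithelium rests, and type VI chains form beaded filaments between them. In the mammary gland fibroblasts are the main source of the fibrillar chains, while epithelial cells, the basal ones above all, add their own basement membrane and hemidesmosomal chains.

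Levels below are normalized log2 intensities, background corrected with an offset that understates the change of dim genes, and contrasts are differences of group means on that scale, with the standard error of the limma fit. Genes were taken as above background on those arrays where any probe of theirs exceeded the 95th percentile of odorant, vomeronasal and trace amine receptor probes, which lay between 6.09 and 6.20. By this measure 25 collagens were above background on both arrays of at least 1 group, 6 were above it on no array, and the other 6 were above it on 1 to 4 arrays without reaching both arrays of a group. Of the probes on an array, 48.1% to 55.5% were above background, and replicates correlated at 0.961 to 0.978. Axl, read as a check of the genotype labels, was at 6.07 and 6.40 in homozygous FDG-high cells, 6.24 and 6.39 in homozygous FDG-low cells, 8.88 and 9.12 in heterozygous FDG-high cells and 8.44 and 7.97 in heterozygous FDG-low cells. Its level separated the genotypes in both gates.

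Markers of other cell types moved with the groups, and their part in the collagen results was not tested. The summed unlogged level of 12 fibroblast markers was 10616 to 15857 in homozygous FDG-high cells, 16041 to 16264 in homozygous FDG-low cells, 10377 to 16057 in heterozygous FDG-high cells and 2922 to 6658 in heterozygous FDG-low cells. That of 11 epithelial markers was 5574 to 8374 in homozygous FDG-high cells, 2925 to 2977 in homozygous FDG-low cells, 6803 to 6807 in heterozygous FDG-high cells and 11526 to 12456 in heterozygous FDG-low cells, and that of 8 basal markers was 10170 to 13742 in homozygous FDG-high cells, 3264 to 3605 in homozygous FDG-low cells, 12484 to 15322 in heterozygous FDG-high cells and 6434 to 11171 in heterozygous FDG-low cells. Heterozygous FDG-low cells thus had the lowest summed fibroblast markers and homozygous FDG-low cells the lowest summed epithelial and basal markers. The basal marker Cnn1 instead had its highest group mean, 6.49, in homozygous FDG-low cells. The heterozygous FDG-low arrays also differed from each other, with the first at 2922 and the second at 6658 for fibroblast markers. None of 5 leukocyte markers, Ptprc and Itgam among them, was above background on any array. Of 7 endothelial markers 5 were above background on both arrays of at least 1 group and 2, Cdh5 and Kdr, on no array. Pecam1, the gene for CD31, was at 6.28 to 7.33 and above background on all 8 arrays, as were Tek and Emcn. Their summed level was 544 to 840 in homozygous FDG-high cells, 677 to 735 in homozygous FDG-low cells, 587 to 705 in heterozygous FDG-high cells and 671 to 672 in heterozygous FDG-low cells. Of 5 adipocyte markers Fabp4 was at 8.79 to 9.74 and above background on all 8 arrays, and Adipoq, Plin1 and Cidec on none. Their summed level was 697 to 1104 in homozygous FDG-high cells, 947 to 1101 in homozygous FDG-low cells, 921 to 981 in heterozygous FDG-high cells and 736 to 816 in heterozygous FDG-low cells. Among 8 pericyte markers Rgs5, Cspg4, Notch3 and Des were above background on all 8 arrays. The summed level of the 8 was 957 to 1202 in homozygous FDG-high cells, 1019 to 1076 in homozygous FDG-low cells, 1012 to 1456 in heterozygous FDG-high cells and 721 to 923 in heterozygous FDG-low cells. Between the FDG-low genotypes 1 of 8 pericyte and 1 of 7 endothelial markers rose in homozygous cells (limma, adjusted p under 0.05). Of either list 0 fell, where 3.79% of all genes rose and 4.63% fell. In bulk samples such as these, fewer cells of a type and less RNA per cell cannot be told apart.

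**Figure D1:**
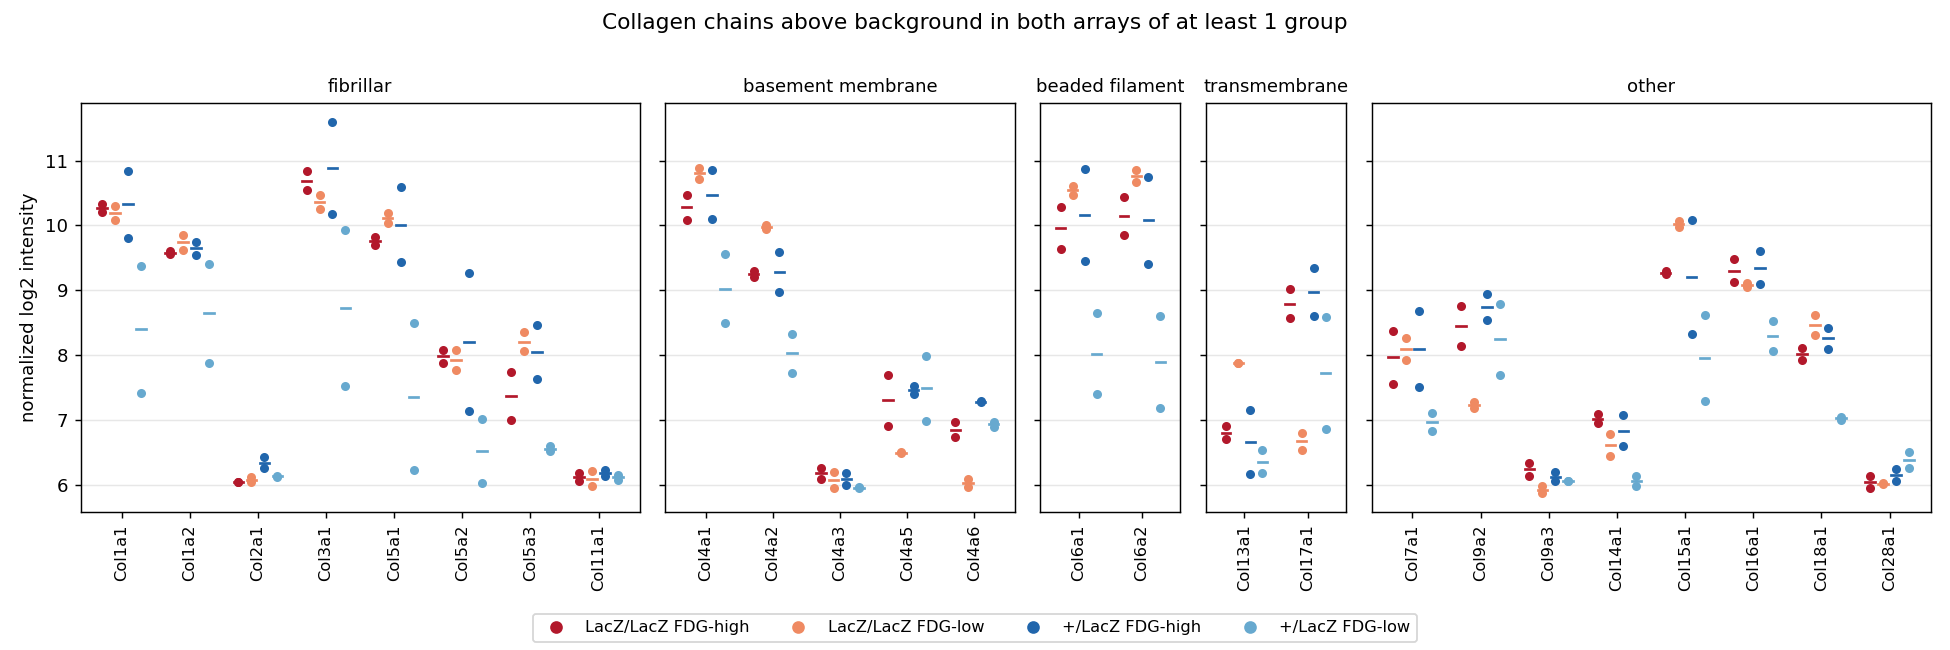
Normalized log2 intensity of the 25 collagen chains above background on both arrays of at least 1 group, by class. Each point is an array and each short line a group mean, with the groups from left to right as in the legend. For Col6a2 the heterozygous FDG-low arrays lie lowest, at 7.19 and 8.61, whereas for Col17a1 and Col4a6 the homozygous FDG-low arrays do.

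Among FDG-low cells, which were sorted for low FDG signal, more collagens were called higher than lower in homozygous cells. The share of collagens that fell was not above that of all genes. Homozygous cells carry 2 lacZ alleles and heterozygous cells 1, so genotype and reporter dose cannot be told apart in this comparison. In homozygous against heterozygous cells 7 of the 37 rose (limma, Benjamini-Hochberg adjusted p under 0.05), where 3.79% of all genes did, and 1 of the 37 fell, where 4.63% did. Those that rose were Col4a1 and Col4a2, the chains of the common type IV network, Col6a1 and Col6a2 of the beaded filaments, the fibrillar Col5a3, the transmembrane Col13a1 and the multiplexin Col18a1. The gene that fell was Col4a6, a type IV chain found under selected epithelia. At an unadjusted p under 0.05, 15 were higher and 4 lower, against 10.7% and 11.7% of all genes. The groups did not overlap for 20 higher and 8 lower collagens, where 24.8% and 25.6% of all genes were so separated. The median difference was 0.24 over the 37 collagens, against 0.0012 over all genes, with a range of -1.06 to 2.87. By class, the median was 1.09 for 11 fibrillar, 0.15 for 6 basement membrane, 2.52 for 3 beaded-filament, 0.06 for 4 transmembrane and 0.05 for the 13 other chains.

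With 1 array left out, the 8 calls became 3 without the first heterozygous FDG-low array (Col18a1, Col4a2 and Col4a6), 5 without the first homozygous FDG-high array, 1 without the first homozygous FDG-low array (Col18a1) and 0 without the second. Without the second heterozygous FDG-low array they numbered 8, of which 5 were the same genes.

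**Figure D2:**
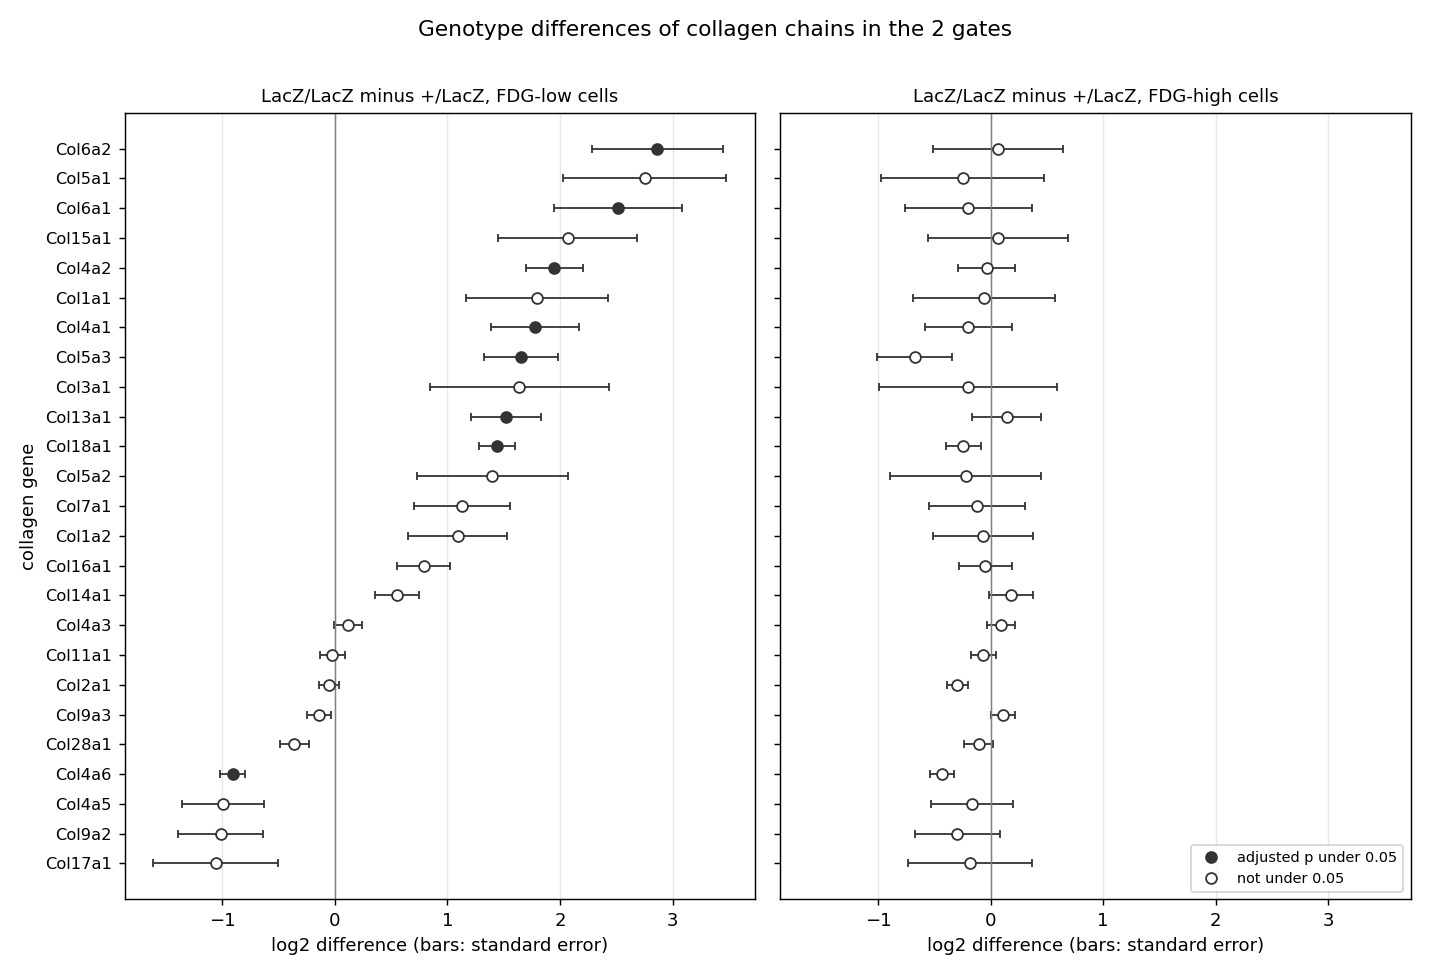
Homozygous minus heterozygous log2 difference of the 25 collagen chains above background, in FDG-low cells (left) and FDG-high cells (right), with standard errors as bars. Filled points have an adjusted p under 0.05. In FDG-low cells values run from -1.06 for Col17a1 to 2.87 for Col6a2, and in FDG-high cells they lie between -0.67 and 0.18.

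Type IV chains, which build the basement membrane network, divided into pairs that lie next to each other in the genome. Col4a1 and Col4a2 code for the chains of the network found under nearly all epithelia and vessels. Col4a1 was at 10.08 and 10.47 in homozygous FDG-high cells, 10.88 and 10.72 in homozygous FDG-low cells, 10.10 and 10.85 in heterozygous FDG-high cells and 8.50 and 9.55 in heterozygous FDG-low cells. Col4a2 followed with 9.20 and 9.30 in homozygous FDG-high cells, 9.95 and 10.004 in homozygous FDG-low cells, 8.98 and 9.59 in heterozygous FDG-high cells and 7.73 and 8.32 in heterozygous FDG-low cells. For both genes the heterozygous FDG-low arrays were the lowest and the homozygous FDG-low arrays lay above the other homozygous ones. In FDG-low cells the genotype difference was 1.78 ± 0.39 for Col4a1 (3.43-fold, limma adjusted p = 0.0436) and 1.95 ± 0.25 for Col4a2 (3.86-fold, adjusted p = 0.0111). Without the first heterozygous FDG-low array it was 1.26 for Col4a1, which no longer passed (adjusted p = 0.123), and 1.65 for Col4a2, which did (adjusted p = 0.0428).

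The neighbouring pair Col4a5 and Col4a6 ran the other way. These X-linked genes code for chains that join in the basement membranes of selected epithelia and of smooth muscle. Col4a6 was at 6.96 and 6.74 in homozygous FDG-high cells, 5.96 and 6.09 in homozygous FDG-low cells, 7.28 and 7.29 in heterozygous FDG-high cells and 6.97 and 6.90 in heterozygous FDG-low cells. On neither homozygous FDG-low array was it above background, so the level there is a bound, and it was at least 1.66-fold lower in homozygous than in heterozygous FDG-low cells (measured difference -0.91 ± 0.11, limma adjusted p = 0.00885). Its other probes gave -0.72 and -0.40 for that comparison. For Col4a5 the levels were 7.69 and 6.91 in homozygous FDG-high cells, 6.51 and 6.49 in homozygous FDG-low cells, 7.41 and 7.52 in heterozygous FDG-high cells and 6.99 and 7.99 in heterozygous FDG-low cells, and its difference of -0.99 ± 0.37 in FDG-low cells did not pass (adjusted p = 0.171), and it was -1.49 without the first heterozygous FDG-low array (adjusted p = 0.0741). Both homozygous FDG-low arrays were the lowest of the 8 for both genes. Col4a3 and Col4a4, chains known from the kidney filter and other specialised membranes, stayed between 5.90 and 6.27 on all arrays, close to background.

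Because the members of each pair shared their lowest group, the promoter windows of the 4 genes are shown, from RefSeq on GRCm38.p6 and written 5′ to 3′ on the gene's own strand, with matches to the CCAAT box, the GC box GGGCGG and the TATA box TATAAA on either strand in capitals. A window runs from 250 bases before to 50 bases after a gene's start. The starts of Col4a2 and Col4a1 lie 21 bases apart on opposite strands and their windows share 78 bases, and those of Col4a5 and Col4a6 lie 1343 bases apart on opposite strands. The Col4a1 window is chr8:11312777-11313076 (minus strand), that of Col4a2 chr8:11312555-11312854 (plus strand), that of Col4a5 chrX:141475169-141475468 (plus strand) and that of Col4a6 chrX:141474027-141474326 (minus strand).
Col4a1: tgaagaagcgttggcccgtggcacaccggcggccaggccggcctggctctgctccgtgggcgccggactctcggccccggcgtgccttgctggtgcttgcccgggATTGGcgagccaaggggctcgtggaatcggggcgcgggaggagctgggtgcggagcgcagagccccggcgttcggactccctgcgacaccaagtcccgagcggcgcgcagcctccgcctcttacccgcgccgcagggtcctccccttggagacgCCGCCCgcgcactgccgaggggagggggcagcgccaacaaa
Col4a2: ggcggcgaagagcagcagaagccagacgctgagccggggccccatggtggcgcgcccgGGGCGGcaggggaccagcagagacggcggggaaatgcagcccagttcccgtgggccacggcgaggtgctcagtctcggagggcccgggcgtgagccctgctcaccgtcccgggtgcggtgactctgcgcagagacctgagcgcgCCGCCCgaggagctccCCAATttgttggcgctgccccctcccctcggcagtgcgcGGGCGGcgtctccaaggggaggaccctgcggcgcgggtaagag
Col4a5: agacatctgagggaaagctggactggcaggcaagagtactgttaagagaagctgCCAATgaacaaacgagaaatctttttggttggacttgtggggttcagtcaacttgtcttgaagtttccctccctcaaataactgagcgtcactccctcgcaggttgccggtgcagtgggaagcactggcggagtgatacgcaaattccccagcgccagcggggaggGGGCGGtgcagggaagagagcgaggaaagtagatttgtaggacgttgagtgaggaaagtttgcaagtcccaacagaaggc
Col4a6: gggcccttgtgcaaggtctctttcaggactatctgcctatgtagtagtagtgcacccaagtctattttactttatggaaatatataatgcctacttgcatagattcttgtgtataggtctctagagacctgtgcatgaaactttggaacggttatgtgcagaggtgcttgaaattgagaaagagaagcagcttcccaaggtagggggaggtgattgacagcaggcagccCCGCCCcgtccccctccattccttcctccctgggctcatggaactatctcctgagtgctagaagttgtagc
CCAAT occurred in the windows of Col4a1, Col4a2 and Col4a5, once in each, and GGGCGG 3 times for Col4a2 and once for each of the other three. Within a window no match overlapped another. The GGGCGG match of Col4a1 lies in the 78 shared bases. It is the last GGGCGG match of Col4a2 read on the other strand, so these are the same bases. Windows were given for 30 of the 37 collagen genes, 33 in all, of which 12 held CCAAT, 20 held GGGCGG and 5 held TATAAA. Of 32851 windows of the same length over all genes, 37.4% held CCAAT, 35.7% GGGCGG and 13.6% TATAAA. These matches describe the letters only.

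Fibrillar chains make up the fibres of the stroma, and the chains of types I, III and V had their lowest group mean in heterozygous FDG-low cells. The principal fibre chains are Col1a1 and Col1a2 of type I and Col3a1 of type III. Col1a1 was at 10.33 and 10.20 in homozygous FDG-high cells, 10.09 and 10.30 in homozygous FDG-low cells, 9.80 and 10.85 in heterozygous FDG-high cells and 7.42 and 9.38 in heterozygous FDG-low cells. Col1a2 was at 9.55 and 9.60 in homozygous FDG-high cells, 9.85 and 9.63 in homozygous FDG-low cells, 9.55 and 9.75 in heterozygous FDG-high cells and 7.89 and 9.41 in heterozygous FDG-low cells. Col3a1 was at 10.83 and 10.55 in homozygous FDG-high cells, 10.48 and 10.25 in homozygous FDG-low cells, 10.18 and 11.60 in heterozygous FDG-high cells and 7.52 and 9.92 in heterozygous FDG-low cells. In all of these genes the 4 homozygous arrays lay within a narrow band, and the first heterozygous FDG-low array was the lowest of the 8. Between the FDG-low groups Col1a1 differed by 1.80 ± 0.63, Col1a2 by 1.09 ± 0.44 and Col3a1 by 1.64 ± 0.79, none of which passed (limma adjusted p = 0.153, 0.214 and 0.303). Without that array the differences were 0.82, 0.33 and 0.44.

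Type V chains, which are built into type I fibres and set their diameter, included the one fibrillar call. Col5a1 was at 9.70 and 9.82 in homozygous FDG-high cells, 10.04 and 10.20 in homozygous FDG-low cells, 9.43 and 10.58 in heterozygous FDG-high cells and 6.22 and 8.50 in heterozygous FDG-low cells. Col5a2 was at 8.09 and 7.88 in homozygous FDG-high cells, 8.09 and 7.77 in homozygous FDG-low cells, 7.15 and 9.27 in heterozygous FDG-high cells and 6.03 and 7.02 in heterozygous FDG-low cells. Col5a3 was at 7.002 and 7.74 in homozygous FDG-high cells, 8.06 and 8.36 in homozygous FDG-low cells, 7.63 and 8.46 in heterozygous FDG-high cells and 6.52 and 6.59 in heterozygous FDG-low cells. For Col5a3 the heterozygous FDG-low arrays were close to each other and lay below the other 6. Its genotype difference in FDG-low cells, 1.65 ± 0.33 or 3.15-fold, passed (limma adjusted p = 0.0339), and without the first heterozygous FDG-low array it was 1.62 with an adjusted p of 0.124. Col5a1 differed by 2.75 ± 0.72 (6.74-fold) and did not pass (adjusted p = 0.0721), and Col5a2 differed by 1.40 ± 0.67. Without that array these were 1.62 for Col5a1 and 0.91 for Col5a2. The fibrillar chains of cartilage, Col2a1, Col11a1 and Col11a2, and the minor chains Col24a1 and Col27a1 lay between 5.77 and 6.43 on all arrays.

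Beaded-filament chains had the largest genotype differences among the calls. Col6a1 and Col6a2 code for chains of the type VI filaments that link fibres to cells, and the genes are neighbours on chromosome 10. Col6a1 was at 9.64 and 10.28 in homozygous FDG-high cells, 10.47 and 10.61 in homozygous FDG-low cells, 9.45 and 10.86 in heterozygous FDG-high cells and 7.40 and 8.65 in heterozygous FDG-low cells. Col6a2 was at 9.85 and 10.44 in homozygous FDG-high cells, 10.67 and 10.86 in homozygous FDG-low cells, 9.41 and 10.75 in heterozygous FDG-high cells and 7.19 and 8.61 in heterozygous FDG-low cells. The heterozygous FDG-low arrays lay below the other 6 for both genes. Among FDG-low cells Col6a1 rose by 2.52 ± 0.56 (5.72-fold, limma adjusted p = 0.0465) and Col6a2 by 2.87 ± 0.58 (7.29-fold, adjusted p = 0.0349) in homozygous glands. Without the first heterozygous FDG-low array these were 1.90 and 2.17 and neither passed (adjusted p = 0.162 and 0.113). The other Col6a1 probes gave 2.62 and 1.72. Col6a6, a further type VI chain, was above background on 1 array, the second homozygous FDG-high one at 6.42. Col6a3, which codes for the third chain of the common type VI filament, was not analysed here.

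Transmembrane chains split like the type IV pairs. Col17a1 codes for a hemidesmosomal collagen that anchors basal epithelial cells to the basement membrane. It was at 9.02 and 8.57 in homozygous FDG-high cells, 6.81 and 6.54 in homozygous FDG-low cells, 9.34 and 8.61 in heterozygous FDG-high cells and 8.60 and 6.86 in heterozygous FDG-low cells. Col13a1, which codes for a cell-surface collagen of adhesion sites, was at 6.91 and 6.70 in homozygous FDG-high cells, 7.88 and 7.88 in homozygous FDG-low cells, 6.17 and 7.16 in heterozygous FDG-high cells and 6.19 and 6.53 in heterozygous FDG-low cells. Homozygous FDG-low cells thus had the lowest Col17a1 and the highest Col13a1 arrays. Col13a1 rose by 1.52 ± 0.31 in homozygous against heterozygous FDG-low cells (2.87-fold, limma adjusted p = 0.0349; 1.35 and adjusted p = 0.138 without the first heterozygous FDG-low array). Col17a1 differed by -1.06 ± 0.55 (adjusted p = 0.346), and its 2 other probes gave -0.995 and -0.67. Without the first heterozygous FDG-low array the Col17a1 difference was -0.19. Col25a1 was close to background with values from 6.002 to 6.31, and Col23a1 was above it on no array.

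The Col17a1 promoter window (RefSeq, GRCm38.p6, chr19:47691993-47692292, minus strand) is shown with the same motifs in capitals. It is set beside those of the type IV pairs because Col17a1, Col4a5 and Col4a6 were all lowest in homozygous FDG-low cells. Their gate differences in heterozygous glands were unlike, at 1.25 for Col17a1, -0.03 for Col4a5 and 0.35 for Col4a6.
Col17a1: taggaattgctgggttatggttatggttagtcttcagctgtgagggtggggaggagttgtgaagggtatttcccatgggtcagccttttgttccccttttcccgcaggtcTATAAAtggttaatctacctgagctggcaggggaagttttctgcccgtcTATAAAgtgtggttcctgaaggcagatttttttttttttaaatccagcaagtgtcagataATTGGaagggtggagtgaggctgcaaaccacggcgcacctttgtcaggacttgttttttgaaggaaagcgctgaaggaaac
It held TATAAA 2 times and CCAAT once, and no GGGCGG.

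Among the other chains Col18a1 had the smallest adjusted p of the 37 collagens in FDG-low cells. It codes for a basement membrane collagen whose tail is the source of endostatin. Col18a1 was at 7.93 and 8.11 in homozygous FDG-high cells, 8.31 and 8.63 in homozygous FDG-low cells, 8.10 and 8.42 in heterozygous FDG-high cells and 7.05 and 7.004 in heterozygous FDG-low cells. The heterozygous FDG-low arrays stood below all others by more than the spread in any group. In FDG-low cells it rose by 1.44 ± 0.16 in homozygous glands (2.71-fold, limma adjusted p = 0.00733), and it passed in 7 of the 8 fits that left out an array. Its other probes gave 0.96 and 0.66.

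Col15a1, the related chain of vessel and stromal basement membranes, was at 9.29 and 9.25 in homozygous FDG-high cells, 9.98 and 10.07 in homozygous FDG-low cells, 8.33 and 10.09 in heterozygous FDG-high cells and 7.30 and 8.61 in heterozygous FDG-low cells. Its difference of 2.07 ± 0.62 between FDG-low groups did not pass (limma adjusted p = 0.103), and it was 1.41 without the first heterozygous FDG-low array. Fibril-associated Col16a1 was at 9.48 and 9.13 in homozygous FDG-high cells, 9.05 and 9.12 in homozygous FDG-low cells, 9.09 and 9.60 in heterozygous FDG-high cells and 8.52 and 8.06 in heterozygous FDG-low cells. The related Col14a1 was at 6.95 and 7.09 in homozygous FDG-high cells, 6.79 and 6.45 in homozygous FDG-low cells, 6.59 and 7.09 in heterozygous FDG-high cells and 5.99 and 6.14 in heterozygous FDG-low cells. Both were lowest on the heterozygous FDG-low arrays, with differences between FDG-low groups of 0.79 ± 0.23 for Col16a1 and 0.55 ± 0.19 for Col14a1 (adjusted p = 0.0974 and 0.152). Col7a1, the gene of the anchoring fibrils beneath epithelia, was at 8.38 and 7.55 in homozygous FDG-high cells, 7.93 and 8.27 in homozygous FDG-low cells, 7.502 and 8.68 in heterozygous FDG-high cells and 7.10 and 6.83 in heterozygous FDG-low cells. Its difference was 1.13 ± 0.43 (adjusted p = 0.182), and its other probe gave 0.30. Col9a2, a fibril-associated chain best known from cartilage, was at 8.75 and 8.15 in homozygous FDG-high cells, 7.27 and 7.19 in homozygous FDG-low cells, 8.95 and 8.55 in heterozygous FDG-high cells and 8.80 and 7.69 in heterozygous FDG-low cells. It shared the order of Col17a1, with homozygous FDG-low cells lowest, and its difference between FDG-low groups was -1.01 ± 0.38 (adjusted p = 0.176), or -0.46 without the first heterozygous FDG-low array. Col9a1, Col9a3, Col26a1 and Col28a1 lay between 5.79 and 6.50, and Col8a2, Col10a1 and Col19a1 were above background on no array.

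Among FDG-high cells, the genotype comparison that the study itself tested, no collagen passed in homozygous against heterozygous glands (limma), where 0% of all genes rose and 0% fell. At an unadjusted p under 0.05, 0 of the 37 were higher and 2 lower, Col4a6 at -0.43 ± 0.11 and Col2a1 at -0.30 ± 0.09, against 1.86% and 1.99% of all genes. The adjusted p was 1 for both. For this comparison the other Col4a6 probes gave -0.11 and 0.09, and the other Col2a1 probe gave -0.15. Col2a1 was above background on neither homozygous FDG-high array, so its level there is a bound. The groups did not overlap for 2 higher and 3 lower collagens, where 14.4% and 15.6% of all genes were so separated. The median difference was -0.06 over the collagens and -0.0027 over all genes. The chains with large differences between FDG-low groups were at 0.07 ± 0.58 for Col6a2, -0.20 ± 0.56 for Col6a1, -0.25 ± 0.72 for Col5a1 and -0.03 ± 0.25 for Col4a2.

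In heterozygous glands no collagen passed the threshold between FDG-high and FDG-low cells (limma). Of the 37, 0 rose, where 0.00603% of all genes did, and 0 fell, where 0% did. At an unadjusted p under 0.05, 14 were higher and 0 lower, against 4.72% and 5.54% of all genes. The groups did not overlap for 20 higher and 3 lower collagens, where 18.5% and 20.5% of all genes were so separated. Col5a1 differed by 2.64 ± 0.72 (6.25-fold), Col6a2 by 2.18 ± 0.58, Col3a1 by 2.17 ± 0.79, Col6a1 by 2.13 ± 0.56 and Col1a1 by 1.93 ± 0.63, with adjusted p-values from 0.269 to 0.412. Col18a1 had the smallest adjusted p of the family, 0.103, at 1.24 ± 0.16. The median was 0.30 over the collagens against -0.0085 over all genes, and 0.998 over the 11 fibrillar chains. Without the first heterozygous FDG-low array Col5a1 was at 1.51, Col3a1 at 0.97 and Col1a1 at 0.95, while Col17a1 was at 2.11 and Col18a1 at 1.26. This comparison shares the heterozygous FDG-low arrays with the genotype comparison of FDG-low cells.

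In homozygous glands the gate comparison gave 1 call. Of the 37 collagens 1 rose in FDG-high against FDG-low cells (limma, adjusted p under 0.05), where 0.259% of all genes did, and 0 fell, where 0.133% did. Col4a6 was at least 1.57-fold higher (measured difference 0.83 ± 0.11, adjusted p = 0.0494), and it held in 1 of the 8 fits that left out an array. At an unadjusted p under 0.05, 4 were higher and 5 lower, against 6.65% and 6.28% of all genes. The higher ones were Col17a1 at 2.12 ± 0.55 (4.35-fold, adjusted p = 0.181), Col9a2 at 1.22 ± 0.38, Col9a3 at 0.31 ± 0.10 and Col4a6. The lower ones were Col13a1 at -1.07 ± 0.31, Col5a3 at -0.84 ± 0.33, Col4a2 at -0.73 ± 0.25, Col18a1 at -0.45 ± 0.16 and Col11a2 at -0.38 ± 0.15. Col9a3 was above background on neither homozygous FDG-low array and Col11a2 on neither homozygous FDG-high array, so their levels there are bounds. Differences of the type I and type III chains were 0.07 ± 0.63 for Col1a1, -0.16 ± 0.44 for Col1a2 and 0.33 ± 0.79 for Col3a1. The groups did not overlap for 10 higher and 15 lower collagens, where 21.3% and 23.3% of all genes were so separated, and the median was 0.01 over the collagens and -0.0085 over all genes.

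**Figure D3:**
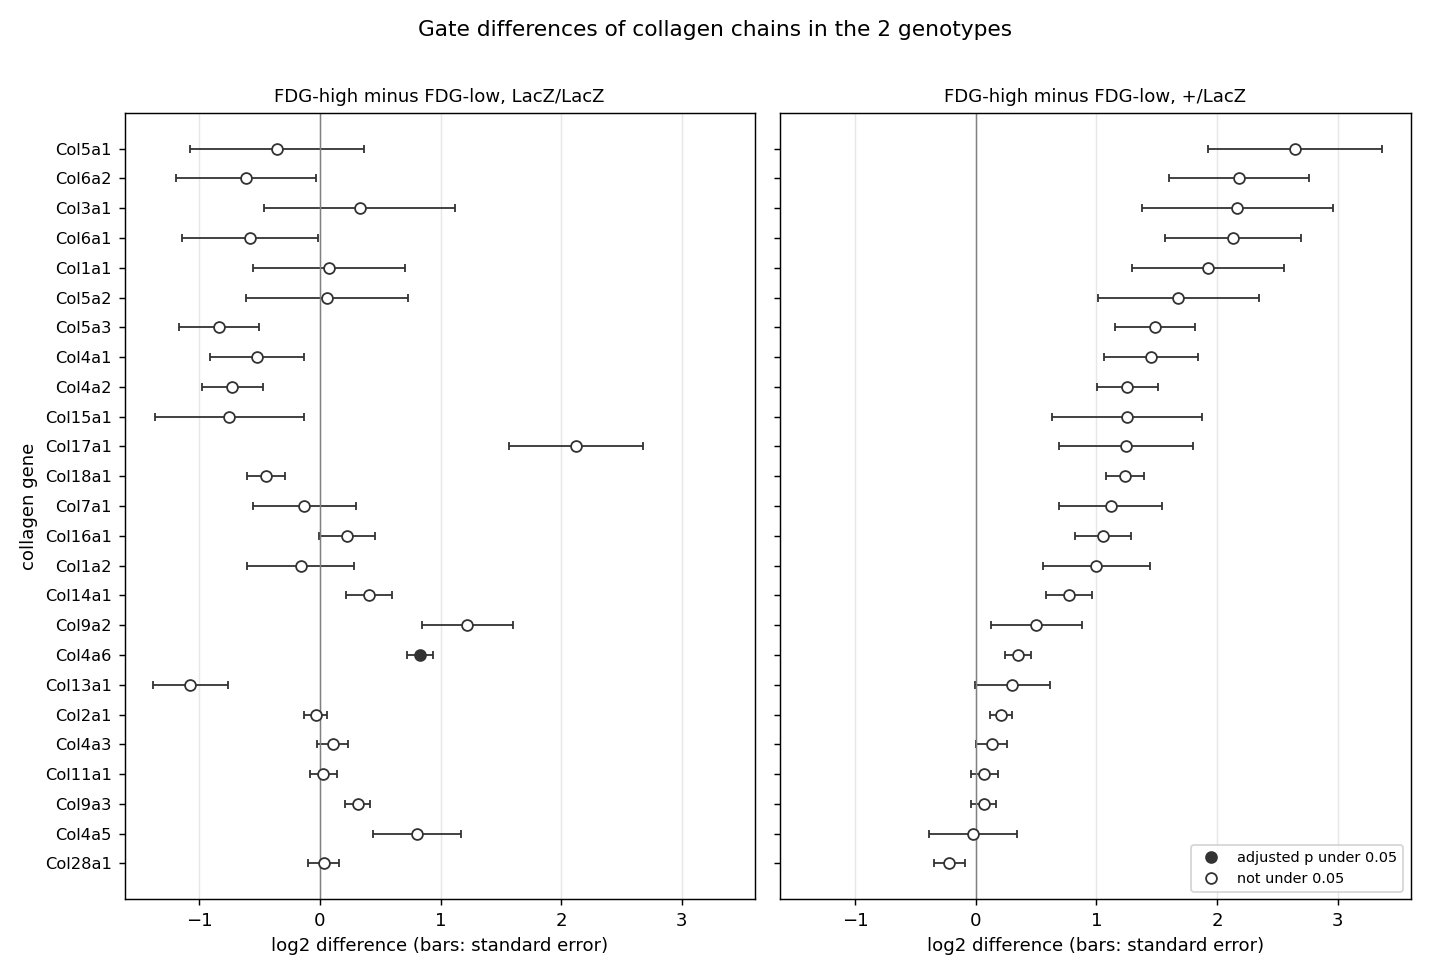
FDG-high minus FDG-low log2 difference of the same 25 collagen chains in homozygous (left) and heterozygous glands (right), with standard errors as bars. The filled point, Col4a6 in homozygous glands, has an adjusted p under 0.05. Col5a1 lies at -0.36 in homozygous and 2.64 in heterozygous glands, and Col17a1 is positive in both, at 2.12 and 1.25.

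Dependence of the gate difference on genotype was tested with the interaction term, which takes the heterozygous gate difference from the homozygous one. At an adjusted p under 0.05 (limma), 0 of the 37 collagens had a higher gate difference in homozygous glands, against 0.579% of all genes. A lower one passed for 1 of the 37, against 0.235% of all genes. That gene was Col18a1, with an interaction of -1.68 ± 0.22 (limma adjusted p = 0.0375), and its other probes gave -0.89 and -0.69. Without either heterozygous FDG-low array, either homozygous FDG-low array, the second heterozygous or the first homozygous FDG-high array, 0 collagens passed, whereas 2 did without the first heterozygous FDG-high array and 1 with the second homozygous FDG-high array left out. Col4a2 at -1.98 ± 0.36 and Col5a3 at -2.33 ± 0.47 came next (adjusted p = 0.0715 and 0.0925). At an unadjusted p under 0.05, 1 was higher, Col4a6 at 0.47 ± 0.15, and 9 were lower, against 7.47% and 6.84% of all genes. The interaction was negative for all 11 fibrillar chains, with a median of -1.16. Of these, Col2a1, Col11a1, Col11a2, Col24a1 and Col27a1 lay near background, between 5.77 and 6.43, where a sign carries little weight. Col11a1 changed sign under other settings, and the other Col24a1 probes gave 0.10 and -0.25. The interaction was negative for 25 of the 37 collagens, with a median of -0.25 against -0.0016 over all genes. It was 0.83 ± 0.52 for Col4a5 and 0.88 ± 0.78 for Col17a1, and without the first heterozygous FDG-low array 1.33 and 0.011. In 9 collagens, Col18a1 and Col4a1, Col4a2, Col6a1 and Col6a2 among them, the gate groups did not overlap in either genotype, with FDG-high cells lower in homozygous and higher in heterozygous glands, where 5.61% of all genes were so placed. In 1, Col6a6 near background, it was the reverse, where 6.01% were.

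Genes that help to make and assemble collagen were described as lists. Of 19 measured genes of collagen biosynthesis, 6 rose and 0 fell in homozygous against heterozygous FDG-low cells (limma), where 3.79% of all genes rose and 4.63% fell, with a median difference of 0.59. They were Creb3l1, a transcription factor for secretory matrix cells, at 1.96 ± 0.33, the lysyl hydroxylase gene Plod2 at 1.40 ± 0.25, the collagen chaperone gene Serpinh1 at 1.34 ± 0.19, the prolyl 3-hydroxylase family genes P3h3 at 1.30 ± 0.28 and P3h1 at 0.81 ± 0.17, and Crtap, the partner of the hydroxylase, at 0.57 ± 0.12. The prolyl 4-hydroxylase gene P4ha2 differed by 1.43 ± 0.38 and did not pass (adjusted p = 0.0735). In FDG-high cells 0 of the 19 passed, with differences between -0.36 and 0.25. Between the gates 0 passed in either genotype, with Creb3l1 at -1.06 ± 0.33, Plod2 at -0.85 ± 0.25 and P3h4 at 0.80 ± 0.18 in homozygous glands and Creb3l1 and Plod2 both at 0.87 and Serpinh1 at 0.83 in heterozygous glands.

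Among 11 genes of extracellular processing and cross-linking, 1 rose and 0 fell between the FDG-low genotypes, against the same 3.79% and 4.63% of all genes, the lysyl oxidase gene Lox at 2.33 ± 0.53 (limma adjusted p = 0.0492). Pcolce2, an enhancer of procollagen cleavage, was at 2.20 ± 0.56 and the lysyl oxidase relative Loxl1 at 1.64 ± 0.46, and neither passed. Of 10 fibril-associated small proteoglycans and partners, 4 rose and 0 fell (3.79% and 4.63% of all genes), namely Lum at 2.36 ± 0.43, Tnxb at 2.32 ± 0.50, Dcn at 1.57 ± 0.31 and Prelp at 1.46 ± 0.25, and Ogn was at 2.80 ± 0.71 without passing (adjusted p = 0.0666). Of 8 measured collagen receptors and uptake genes, set against those shares, 1 rose, the receptor kinase gene Ddr2 of mesenchymal cells at 2.41 ± 0.40, and 2 fell, its epithelial relative Ddr1 at -1.61 ± 0.19 and the integrin chain Itga2 at -1.51 ± 0.28. In these 3 lists 0 genes passed in either direction in FDG-high cells between genotypes or between gates in either genotype. On the first and second heterozygous FDG-low arrays Lox was at 5.90, below background, and 6.82. Lum was at 8.05 and 9.15 there, Tnxb at 6.10 and 7.06 and Prelp at 6.34 and 6.57. Values with an array left out were taken for the collagens only, so how far the pathway and marker calls rest on 1 array was not tested.

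**Figure D4:**
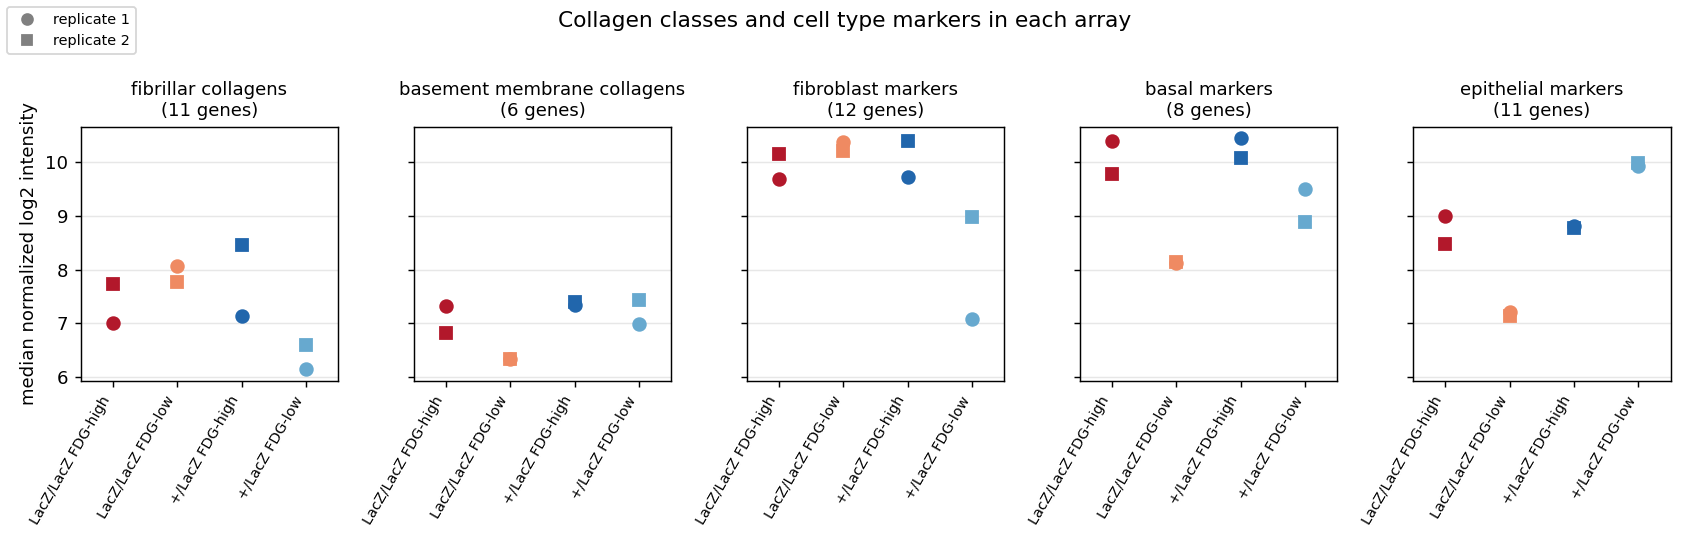
Median normalized log2 intensity in each array over 11 fibrillar and 6 basement membrane collagens and over 12 fibroblast, 8 basal and 11 epithelial markers. Circles are first and squares second replicates. Medians of fibrillar collagens and fibroblast markers are lowest in heterozygous FDG-low cells (6.15 and 6.59, and 7.07 and 8.98), and those of basal and epithelial markers in homozygous FDG-low cells (8.12 and 8.14, and 7.22 and 7.13). The basement membrane median (6.33 and 6.34 in homozygous FDG-low cells) falls among Col4a3 to Col4a6 and hides members that go both ways, since their summed unlogged level was 3165 and 3015 in homozygous FDG-low cells, against 949 and 1570 in heterozygous FDG-low cells.

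Marker lists gave the values beside which these differences stand. In homozygous against heterozygous FDG-low cells 5 of 12 fibroblast markers rose and 0 fell (limma), where 3.79% of all genes rose and 4.63% fell, Thy1 at 2.39 ± 0.30 among them, while Pdgfra at 2.48 ± 0.62 did not pass. Dcn, Lum and Dpt are on both this list and that of small proteoglycans and partners. Of the 9 other fibroblast markers 3 rose and 0 fell, against the same shares of all genes. In the same comparison, with those shares, 0 of 11 epithelial markers rose and 10 fell, with Krt7 at -3.67 ± 0.29 and St14 at -3.41 ± 0.19, and 0 of 8 basal markers rose and 1 fell, Acta2 at -1.62 ± 0.15. Differences were negative for 7 of the 8 basal markers, and Cnn1 went the other way, at 0.42 without passing. In FDG-high cells 0 of these markers passed between genotypes. Between the gates of homozygous glands, where Col4a6 rose, 3 of 11 epithelial markers and 1 of 8 basal markers (Acta2 at 1.76 ± 0.15) rose in FDG-high cells, where 0.259% of all genes did, and 0 of 12 fibroblast markers passed. Between the heterozygous gates 0 markers of these lists passed, with medians of 1.74 for fibroblast, -1.06 for epithelial and 0.67 for basal markers. For the interaction, where Col18a1 passed, 4 of 11 epithelial markers were higher, where 0.579% of all genes were, and 0 fibroblast markers passed, with a fibroblast median of -2.0004.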

How the data were processed

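RNA of 8 sorted cell samples was read on Illumina mouse bead arrays. The deposited values are linear probe intensities for 25697 probes, per the value table itself. The series text describes log2 quantile normalized values, which these are not. Background treatment by the scanner software was a step not given in the sources used here. Intensities were background corrected with normexp (offset 50), quantile normalized and log2 transformed in limma 3.58.1 under R 4.3.3. Of the probes, 23978 had 1 symbol and 1719 none, and the probe with the highest mean over all arrays stood for a gene. All 37 collagen genes matched RefSeq by gene identifier, with 0 symbols changed. The background level was set by 1324 receptor probes. A single model with a coefficient per group (4 residual and 2.36 prior degrees of freedom) gave 5 contrasts with two-sided moderated tests, adjusted over all 16593 genes (Benjamini-Hochberg, threshold 0.05). The code was also run on simulated data with independent noise on each array. That run cannot show how the model behaves where arrays deviate together. A fold against a group with neither array above background is a bound, set by the lowest value above background on each array. Array number limits precision. The rank product of the series text permutes genes and was not run.

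Collagen genes, their classes, the lists of pathway and marker genes and the naming rule (every collagen, array values for those clearly above background and ranges for the rest, and the list members with the largest differences or past the threshold) were chosen with earlier results of these data known. Of the listed symbols, 8 of 27 for biosynthesis, 2 of 13 for processing and 2 of 10 for receptors were not measured. The biosynthesis list holds older and newer symbols of the same gene, such as Lepre1 and P3h1, so fewer than 8 of its genes are missing. Pericyte, endothelial, leukocyte and adipocyte markers entered as a check of the sort, those named being chosen after their values were seen. For pericyte and endothelial markers the calls between the FDG-low genotypes were also counted. A Schwann cell list with 1 measured gene was not used. Replicate numbers came from the titles and were not taken as pairs. Alternatives varied the normalization, background correction, offset, probe summary, filter, variance model, arrays in the fit and replicate block, and left out each array in turn.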

Additional observations from a re-analysis of the deposited data

Results flagged for a closer look

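For 10 collagens the FDG-high and FDG-low arrays did not overlap in either genotype and ran in opposite directions. In 9 of them FDG-high cells were lower in homozygous and higher in heterozygous glands, where 5.61% of all genes were so placed, and in 1 the reverse held, where 6.01% were. The interaction, homozygous minus heterozygous gate difference on the log2 scale, tested this directly. It passed for Col18a1 alone, at -1.68 (limma adjusted p = 0.0375). It was -1.98 for Col4a2, -1.97 for Col4a1, -2.33 for Col5a3, -3.00 for Col5a1, -2.72 for Col6a1, -2.80 for Col6a2 and -1.16 for Col1a2, with adjusted p-values from 0.0715 to 0.495. Without the first heterozygous FDG-low array it was -1.87 for Col5a1 and -0.39 for Col1a2, and -1.71 for Col18a1, which then did not pass (adjusted p = 0.104). For Col9a1 it was -0.34 and for Col6a6 0.37, both genes close to background (adjusted p = 0.449 and 0.58).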

How the results depend on the processing

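In the genotype comparison of FDG-low cells the 8 collagen calls became 5 without background correction and 4 with log2 of the value plus 16, and they numbered 6 to 11 under the other 8 settings that kept all arrays. Leaving out 1 array gave 0 to 9 calls, and a lone array was then assumed to vary like the other groups. The 1 call of the homozygous gate comparison held with median centring and an offset of 16, was 0 under the other 8 settings, and ranged from 0 to 1 without an array. The 1 interaction call became 0 with median centring, without background correction and with the value plus 16, 3 with an offset of 16, with either filter on dim genes and with a variance trend, and 2 with the replicate block; without an array it was 0 to 2. The replicate block gave 9 calls in FDG-low cells; deviations of same-numbered arrays correlated over all genes at 0.01 between the gates in homozygous and 0.40 in heterozygous glands, and at 0.07 (FDG-high) and -0.05 (FDG-low) between genotypes, and over the collagens at 0.13, 0.71, 0.16 and 0.08. Same-numbered heterozygous arrays thus deviated together, but no label gives the numbers a shared source and they were not used as pairs. The comparison of heterozygous gates and that of genotypes in FDG-high cells kept 0 collagen calls under every setting run. Median differences moved by more than the spread between arrays (SD 0.24) where dim genes were filtered out, which leaves 27 (above background on at least 2 arrays) or 20 collagens (above median brightness): to 1.06 and 1.25 between the heterozygous gates, 1.09 and 1.48 between genotypes in FDG-low cells, and -1.16 and -1.65 for the interaction. No called collagen changed sign under any setting. Without an array the medians were -0.10 to 0.02 between the homozygous and 0.22 to 0.32 between the heterozygous gates, -0.16 to 0.07 between genotypes in FDG-high and 0.16 to 0.28 in FDG-low cells, and -0.32 to -0.16 for the interaction. The cause of these shifts was not tested. For the 12 of 37 collagens not above background on both arrays of any group, signal over background limits what can be seen.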
